A study of Mus musculus with 48 samples.

Results

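The miR-23/24/27 clusters are a pair of mouse microRNA gene clusters, one on chromosome 8 and one on chromosome 13, and 6 of their mature miRNAs are described here. The members were taken by name from the count table, with earlier results of these data known. From chromosome 8 they are mmu-miR-23a-3p, mmu-miR-27a-3p and mmu-miR-24-2-5p, and from chromosome 13 mmu-miR-23b-3p and mmu-miR-27b-3p. The remaining member, mmu-miR-24-3p, is made by both clusters. The species prefix is left out from here on. They are 6 of the 1978 miRNAs in the table, and each had counts in every library. The study sequenced small RNA from 48 ganglion libraries of Balb/c mice aged 2.5 months. Mice received lipopolysaccharide (LPS) of E. coli O55:B5 at 2.5 mg/kg into the peritoneum, or saline as the control, in a volume of 0.2 mL, and tissue was taken at 4 h, 24 h and 7 d. LPS is a component of the bacterial outer membrane that sets off systemic inflammation through Toll-like receptor 4. The trigeminal ganglion (TG) holds sensory neurons of the face, and the superior cervical ganglion (SCG) holds sympathetic neurons. The 12 groups were TG after LPS, TG after saline, SCG after LPS and SCG after saline at each time, with 4 libraries each. Replicates 1 and 2 of each group came from female mice and replicates 3 and 4 from male mice. The left and right ganglia of a mouse were taken, the tissue was bulk RNA of whole ganglia, and the labels do not say which TG and SCG libraries share a mouse.

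A miRNA is cut from a hairpin in a longer transcript by Drosha and Dicer, and 1 strand, or arm, is then loaded into an Argonaute protein. There it represses mRNAs that pair with its seed, the stretch near its 5′ end. Each cluster is transcribed as 1 primary transcript that carries a miR-23, a miR-27 and a miR-24 hairpin. The family is known for its abundance in blood vessels and for roles in angiogenesis. The miR-27 pair represses genes of lipid metabolism and fat cell differentiation, including PPAR gamma. The miR-23 pair represses glutaminase, and miR-23b also represses adaptors of inflammatory cytokine signalling. The miR-24 member represses regulators of the cell cycle and of apoptosis.

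In RefSeq coordinates of build GRCm38.p6 the chromosome 8 cluster lies at chr8:84208518-84208921 on the + strand, where Mir23a, Mir27a and Mir24-2 take up 404 bases. The chromosome 13 cluster lies at chr13:63300484-63301275, also on the + strand, where Mir23b, Mir27b and Mir24-1 take up 792 bases. In the GRCm38 gene annotation the chromosome 13 hairpins lie inside the gene 2010111I01Rik on the same strand, with Fancc on the opposite strand. Mir27b and Mir24-1 lie within annotated exons of that gene, and Mir23b lies outside them. On chromosome 8, Mir23a and Mir27a overlapped no other annotated gene, and Mir24-2 shared 2 bases with an exon of the long non-coding RNA Gm26532.

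The mature sequences of the table used, from RefSeq, matched 5 of the 6 members. They are printed because they show which members can act on the same targets and which are hard to tell apart by sequencing. Capitals mark the seed, bases 2 to 8.
miR-23a-3p: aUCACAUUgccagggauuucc
miR-27a-3p: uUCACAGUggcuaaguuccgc
miR-27b-3p: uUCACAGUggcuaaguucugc
miR-24-3p: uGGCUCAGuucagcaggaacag
miR-24-2-5p: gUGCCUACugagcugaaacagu
miR-24-1-5p: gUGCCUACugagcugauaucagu
miR-27a-5p: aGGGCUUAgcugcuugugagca

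The miR-27 paralogs have the same seed, and over 21 positions counted from the 5′ end they differ by 1 substitution, C19U, where the miR-27a-3p base is given first. No other of the 1679 mature miRNAs in the RefSeq table had that seed. The seed of miR-23a-3p differs from it by U7G, with the miR-23a-3p base first. The member miR-24-2-5p and the arm miR-24-1-5p also share a seed and differ at 5 of the 22 positions compared, all outside the seed. Positions were compared from the 5′ end without gaps. The arms are 22 and 23 bases long and have the same last bases, so positions near the 3′ end are shifted against each other. How the authors assigned reads that could match both of a pair of paralogs is not given in the sources used here, so counts of miR-27a-3p and miR-27b-3p, and of miR-23a-3p and miR-23b-3p, could be in part exchanged.

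The hairpins of miR-24 show why it has 1 row for its 3′ arm and separate rows for its 5′ arms. Capitals mark the mature arms, the 5′ arm first.
Mir24-1: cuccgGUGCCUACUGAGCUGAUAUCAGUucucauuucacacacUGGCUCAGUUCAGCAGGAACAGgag
Mir24-2: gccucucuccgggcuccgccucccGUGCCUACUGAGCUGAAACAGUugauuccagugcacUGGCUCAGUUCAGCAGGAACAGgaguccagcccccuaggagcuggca

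The 3′ arm of both hairpins is the same 22-base miR-24-3p, so its count is the sum over chromosomes 8 and 13. Only the 5′ arms separate the loci, miR-24-2-5p for chromosome 8 and miR-24-1-5p for chromosome 13.

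Libraries held 1774047 to 5592766 miRNA counts, with a median of 3536934, and the 6 members took up 3.09% to 6.53% of them. The ganglia matched their labels on sensory neuron markers: the sum of miR-183-5p, miR-96-5p and miR-182-5p was 57023 to 88266 CPM (counts per 1000000 counts) in TG, against 221 to 21072 CPM in SCG. Within SCG, replicate 1 at 24 h after saline had the 21072 CPM and replicate 1 at 7 d after saline had 6813 CPM. The other SCG libraries had at most 3796 CPM. Some libraries stood apart on other markers. In SCG at 7 d after LPS, replicate 2 had 35358 CPM of 3 skeletal muscle markers, 4887 CPM of 3 epithelial markers, 4551 CPM of 3 leukocyte markers and 40.02 CPM of 2 myelinating glia markers. It also had 35870 CPM of 4 neuron markers, against 10123 to 11338 CPM in the other replicates of its group. In SCG at 4 h after saline, replicates 1 and 2 had 94274 and 20089 CPM of the muscle markers, against 441 and 304 CPM in replicates 3 and 4. In TG at 7 d after saline, replicates 1, 2 and 4 had 55436, 55189 and 51611 CPM of 4 neuron markers, against 30344 CPM in replicate 3. Values without the libraries named for muscle or neuron markers stand beside the results they moved most. None are given without the SCG libraries high in sensory neuron markers.

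Levels are CPM after TMM scaling of library sizes. Reads span a whole mature miRNA, so values were not divided by length, and ligation favours some ends over others, so order between miRNAs is approximate. The abundant members were miR-27b-3p and miR-24-3p. Median miR-27b-3p was 30241 CPM in TG and 21139 CPM in SCG, and it ranked 9 of 1418 detected miRNAs in TG and 15 of 1371 in SCG. Median miR-24-3p was 18699 CPM in TG and 24364 CPM in SCG, at ranks 14 and 12. The chromosome 8 miR-27 was less abundant, with a median miR-27a-3p of 5875 CPM in TG and 7932 CPM in SCG. The scarce members were miR-24-2-5p at 831 CPM in TG and 1115 CPM in SCG, miR-23b-3p at 1216 CPM in TG and 920 CPM in SCG, and miR-23a-3p at 493 CPM in TG and 692 CPM in SCG.

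When the 12 groups were ordered by mean, 3 members were highest in an SCG group after LPS: miR-23a-3p and miR-24-2-5p at 4 h and miR-27a-3p at 7 d. The member miR-24-3p was highest in SCG at 7 d after saline. The chromosome 13 members were highest in TG after LPS, miR-23b-3p at 4 h and miR-27b-3p at 7 d. The lowest group was TG at 7 d after saline for miR-23a-3p, miR-27a-3p, miR-24-2-5p and miR-24-3p. The highest mean exceeded the lowest by 1.55 times for miR-24-3p to 2.23 times for miR-23a-3p. Among the 11 neighbouring pairs in each order, the means differed by more than the larger SD of the pair in 2 pairs for miR-24-2-5p, in 2 pairs for miR-27b-3p and in 0 pairs for the other members, so most neighbours in the order are not separated beyond the spread between libraries.

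**Figure D1:**
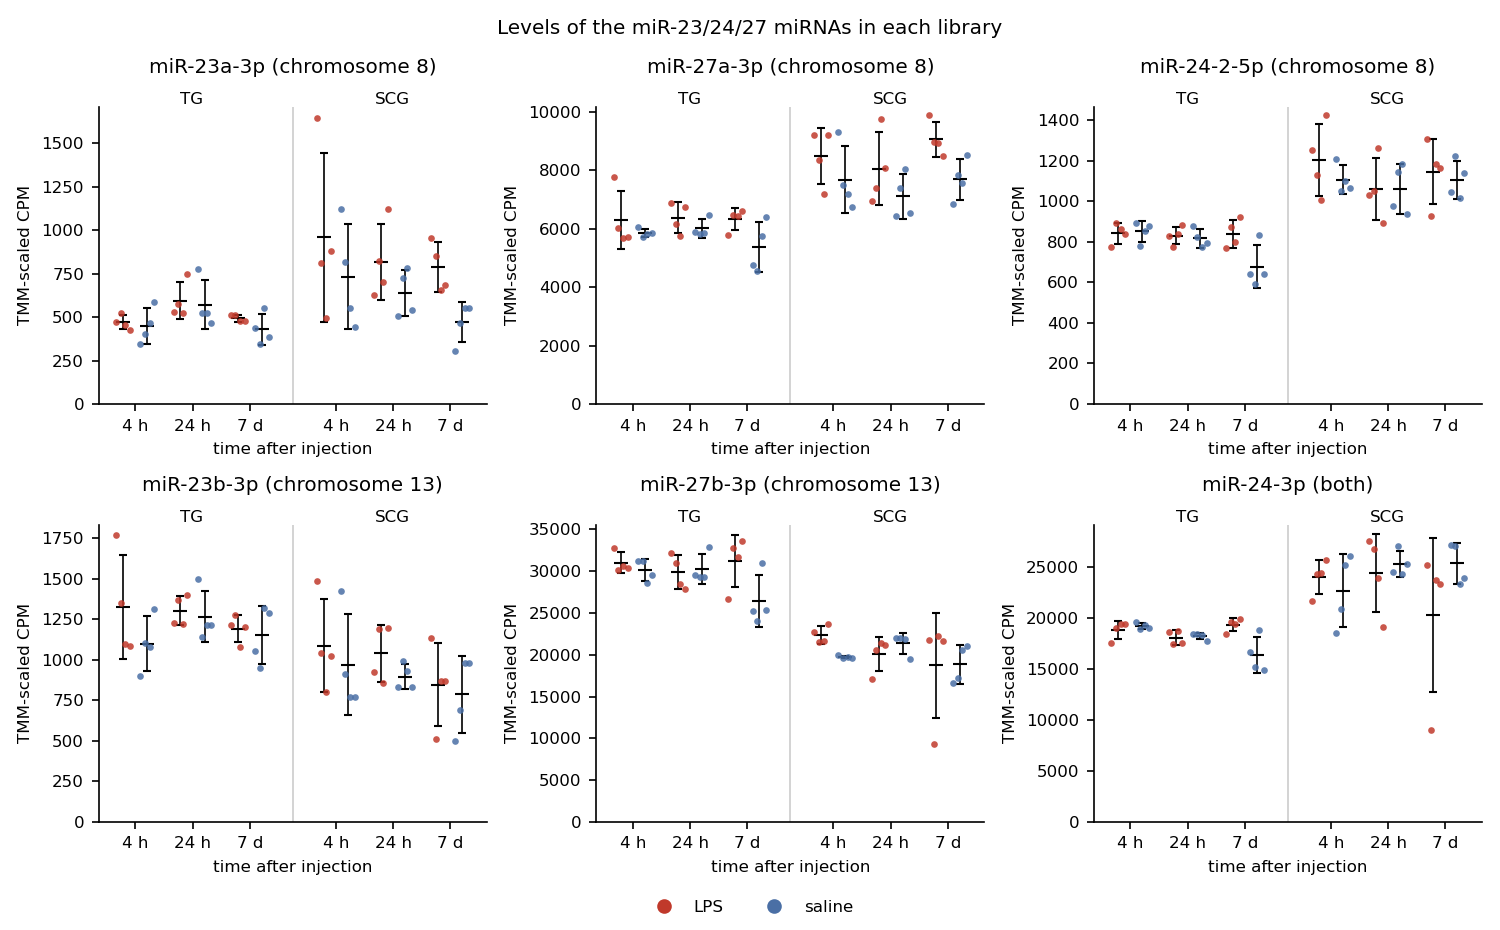
TMM-scaled CPM of the 6 members in each of the 48 libraries, by ganglion and time after injection, with LPS libraries in red to the left of saline libraries in blue. Black marks are means and bars are SD of 4 libraries. For miR-27b-3p all TG libraries, 24027 CPM and above, lie above all SCG libraries, 23728 CPM and below. In SCG at 7 d after LPS, 1 library with 9038 CPM of miR-24-3p and 9266 CPM of miR-27b-3p lies far below the others.

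The contrast of ganglia separated the members by chromosome. The members made only from chromosome 13 were higher in TG than in SCG, and those made only from chromosome 8 were lower, after LPS and after saline. With edgeR's quasi-likelihood test and Benjamini-Hochberg adjustment over all miRNAs, 6 of 6 members passed at 0.05 after LPS, 2 higher and 4 lower in TG, where 51.6% of 560 miRNAs tested passed (24.3% higher and 27.3% lower). After saline 6 of 6 passed as well, 2 higher and 4 lower, where 66.4% of 541 miRNAs passed (31.4% higher and 34.9% lower). More than 1 in 2 miRNAs thus differed between these tissues, and the members' share is to be read against that. The members' median log2 fold change was -0.37 after LPS, against -0.11 over all miRNAs tested, and -0.43 after saline, against 0.00 over all.

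Among chromosome 13 members, miR-27b-3p had the clearest separation. After LPS its lowest, median and highest values were 26682, 30806 and 33599 CPM in TG, against 9266, 21535 and 23728 CPM in SCG. After saline they were 24027, 29427 and 32907 CPM in TG, against 16563, 19829 and 22051 CPM in SCG. All 24 TG libraries were above all 24 SCG libraries, a state reached by 5.55% of the 577 miRNAs compared. On the log2 scale TG exceeded SCG by 0.58 ± 0.10 (SE; adjusted p = 3.38e-05, edgeR) after LPS and 0.46 ± 0.05 (adjusted p = 7.43e-08, edgeR) after saline. The seed-sharing paralog miR-27a-3p went the other way. Its values after LPS were 5673, 6294 and 7783 CPM in TG, against 6941, 8703 and 9901 CPM in SCG. After saline they were 4558, 5843 and 6481 CPM in TG, against 6435, 7457 and 9310 CPM in SCG. All 24 TG libraries lay below the SCG median, although the ranges overlapped. Its log2 fold change was -0.45 ± 0.08 (adjusted p = 4.59e-05, edgeR) after LPS and -0.46 ± 0.07 (adjusted p = 5.85e-06, edgeR) after saline.

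The miR-23 paralogs were scarcer and more scattered. For miR-23b-3p the lowest, median and highest values after LPS were 1077, 1226 and 1771 CPM in TG, against 511, 976 and 1485 CPM in SCG, and after saline 901, 1178 and 1498 CPM in TG, against 498, 875 and 1426 CPM in SCG. The groups overlapped, and 23 of 24 TG libraries lay above the SCG median. Its log2 fold change was 0.35 ± 0.12 (adjusted p = 0.0153, edgeR) after LPS and 0.34 ± 0.12 (adjusted p = 0.0146, edgeR) after saline. For miR-23a-3p the values after LPS were 427, 511 and 748 CPM in TG, against 496, 818 and 1643 CPM in SCG, and after saline 345, 466 and 776 CPM in TG, against 307, 550 and 1122 CPM in SCG. The groups overlapped widely, most of all after saline, where 3 of 12 TG libraries lay above the SCG median. Its log2 fold change was -0.73 ± 0.15 (adjusted p = 0.00037, edgeR) after LPS and -0.40 ± 0.16 (adjusted p = 0.0301, edgeR) after saline. The saline call was lost without SCG 4 h replicates 1 and 2, the libraries high in muscle markers (log2 fold change -0.16, adjusted p = 0.276), and without TG 7 d replicates 1, 2 and 4 (-0.35, adjusted p = 0.119).

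Both miR-24 members were lower in TG. For miR-24-2-5p, the chromosome 8 arm, the lowest, median and highest values after LPS were 771, 838 and 923 CPM in TG, against 895, 1148 and 1424 CPM in SCG. After saline they were 594, 808 and 893 CPM in TG, against 937, 1085 and 1225 CPM in SCG. After saline all 12 TG libraries lay below all 12 SCG libraries, as for 9.01% of 577 miRNAs, and after LPS the ranges overlapped slightly. This gave a log2 fold change of -0.45 ± 0.08 (adjusted p = 6.09e-05, edgeR) after LPS and -0.56 ± 0.07 (adjusted p = 5.15e-07, edgeR) after saline. For miR-24-3p, summed over both loci, the values after LPS were 17418, 18857 and 19949 CPM in TG, against 9038, 24113 and 27607 CPM in SCG. After saline they were 14938, 18419 and 19596 CPM in TG, against 18500, 24874 and 27148 CPM in SCG. All 24 TG libraries lay below the SCG median, and the groups overlapped through a few low SCG libraries. For it the log2 fold change was -0.30 ± 0.11 (adjusted p = 0.0317, edgeR) after LPS and -0.52 ± 0.07 (adjusted p = 4.27e-07, edgeR) after saline. Without SCG 7 d LPS replicate 2 the value after LPS was -0.37 ± 0.05 (adjusted p = 3.90e-07).

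The direction of each member was the same in 6 of 6 combinations of time and treatment. The ratio of the TG mean to the SCG mean ran from 1.38 to 1.67 for miR-27b-3p and from 1.13 to 1.47 for miR-23b-3p. For the other members it ran from 0.697 to 0.846 for miR-27a-3p, from 0.612 to 0.784 for miR-24-2-5p, from 0.646 to 0.953 for miR-24-3p and from 0.490 to 0.916 for miR-23a-3p. With no filter on low counts, which left 1424 miRNAs to adjust over after LPS, miR-24-2-5p (adjusted p = 0.0755, edgeR), miR-24-3p (0.158) and miR-23b-3p (0.199) lost their calls there, and miR-23a-3p (0.271) lost its call after saline.

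The other arms of the hairpins were read as 1 list of 8 names, 6 of which passed the filter on low counts. In TG against SCG, 1 was higher and 2 were lower after LPS, where 24.3% of all miRNAs tested were higher and 27.3% lower. After saline 2 were higher and 3 lower, where 31.4% of all miRNAs tested were higher and 34.9% lower. The chromosome 13 arm miR-24-1-5p had a lowest, median and highest value of 237, 277 and 347 CPM in TG, against 72.9, 193 and 225 CPM in SCG. All TG libraries were above all SCG libraries, as for 5.55% of 577 miRNAs. Its log2 fold change was 0.58 ± 0.13 (adjusted p = 0.000539, edgeR) after LPS and 0.44 ± 0.07 (adjusted p = 7.68e-06, edgeR) after saline, the opposite direction to miR-24-2-5p. The chromosome 8 arm miR-27a-5p had 36.8, 54.9 and 78.9 CPM in TG, against 75.2, 102 and 165 CPM in SCG. Its difference was larger than that of its 3′ partner, at -1.07 ± 0.14 (adjusted p = 1.35e-06, edgeR) after LPS and -1.04 ± 0.10 (adjusted p = 3.85e-09, edgeR) after saline, but the difference between the arms was not tested. The scarce chromosome 8 arm miR-23a-5p, at most 6.63 CPM, had -1.01 ± 0.23 after LPS and -1.42 ± 0.33 after saline. The remaining chromosome 13 arms had values below 0, unlike their partners. For miR-27b-5p the log2 fold change was -0.02 ± 0.10 after LPS and -0.07 ± 0.08 after saline, which did not pass, and for miR-23b-5p it was -0.31 ± 0.18 after LPS, which did not pass, and -0.70 ± 0.17 (adjusted p = 0.000872, edgeR) after saline. The antisense-named miR-3074-5p, at most 12.7 CPM, had -0.02 ± 0.43 after LPS, which did not pass, and 0.80 ± 0.31 (adjusted p = 0.0249, edgeR) after saline, and the difference between treatments was not tested.

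**Figure D2:**
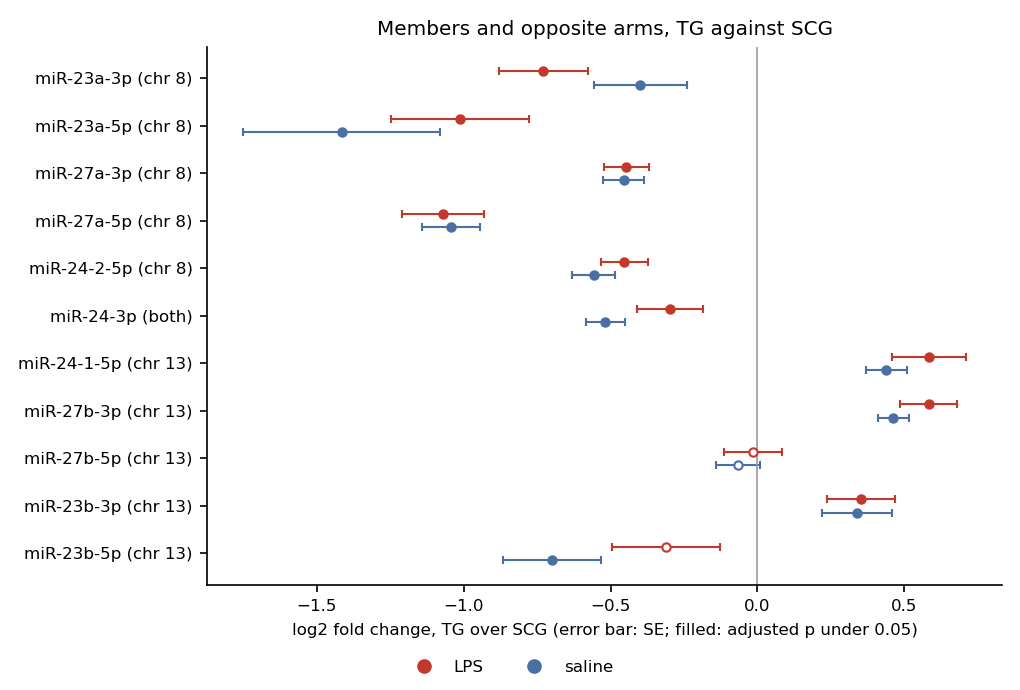
log2 fold change of TG over SCG, with SE, for the members and the opposite arms of their hairpins, in LPS-treated (red) and saline-treated (blue) mice. Filled points have an adjusted p under 0.05 and the chromosome of each arm is given in brackets. Values run from -1.42 for miR-23a-5p after saline to 0.58 for miR-27b-3p after LPS.

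Ratios of paralogs within a library do not depend on library scaling. The ratio of miR-27a-3p to miR-27b-3p ran from 0.183 to 0.253 in TG, with a median of 0.199, against 0.293 to 0.967 in SCG, with a median of 0.388. The ratio of miR-23a-3p to miR-23b-3p ran from 0.265 to 0.534 in TG, with a median of 0.417, against 0.561 to 1.67 in SCG, with a median of 0.743. Neither ratio overlapped between the ganglia. The members of each pair had gone in opposite directions between the ganglia when taken singly. How many ratios of other miRNAs also separate the ganglia was not computed. On the mean log2 ratio, 27a to 27b was 0.484 times as large in TG as in SCG after LPS and 0.530 times as large after saline, and 23a to 23b was 0.480 and 0.599 times as large. Each of these 4 differences had p = 2e-05 in a two-sided permutation test with 100000 permutations of 12 against 12 libraries, the smallest p they can give, and an adjusted p of 2.67e-05 over 8 tests. The ratio of miR-24-2-5p to miR-24-3p had a geometric mean of 0.0447 in TG and 0.0508 in SCG after LPS (permutation p = 0.0787, adjusted p = 0.0899) and of 0.0434 in TG and 0.0447 in SCG after saline (permutation p = 0.557, adjusted p = 0.557), and a difference was not shown. The 5′ arm ratio of miR-24-2-5p to miR-24-1-5p, added after the values had been seen, ran from 2.43 to 3.49 in TG, against 4.47 to 12.7 in SCG. For all 3 pairs of the loci the chromosome 8 product was thus lower relative to its chromosome 13 counterpart in every TG library than in any SCG library.

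**Figure D3:**
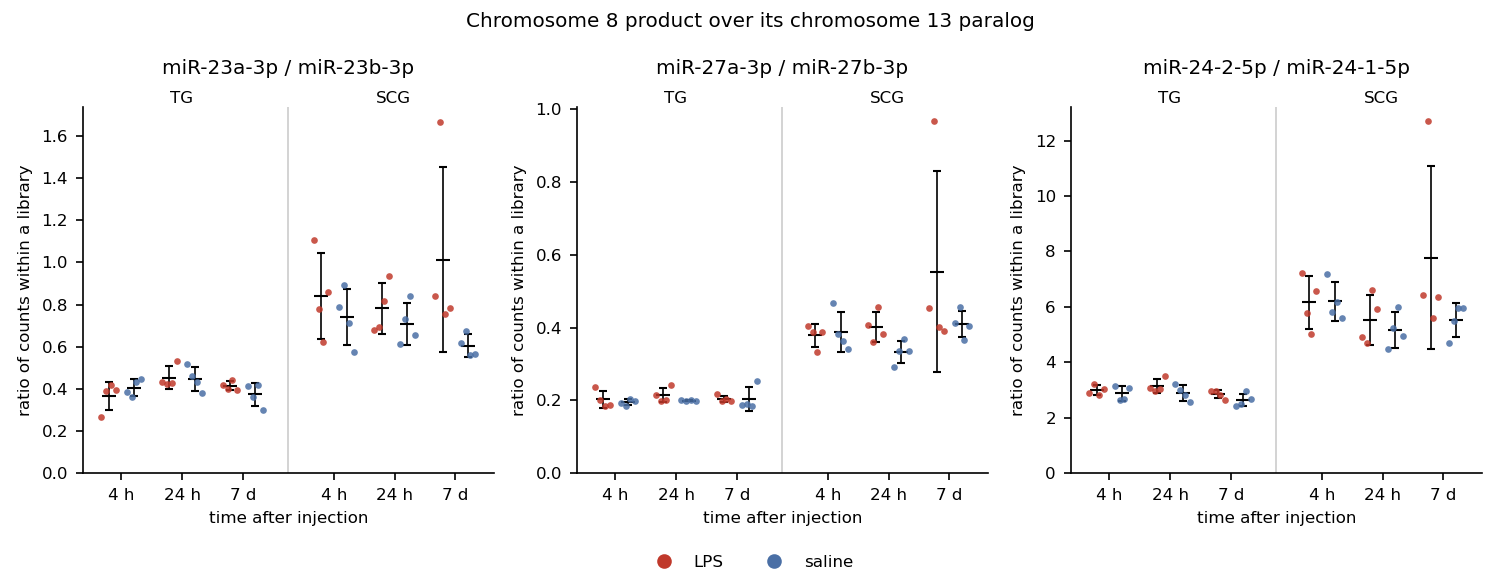
Ratio of the chromosome 8 miRNA to its chromosome 13 counterpart within each library, by ganglion and time, with LPS libraries in red to the left of saline libraries in blue. Black marks are means and bars are SD of 4 libraries. The ganglia do not overlap in any panel. In SCG at 7 d after LPS, 1 library has the highest ratio of each panel, up to 12.7 for miR-24-2-5p over miR-24-1-5p.

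Some markers of other cell types moved with the ganglion. The summed level of 4 of 4 smooth muscle and mesenchyme markers (miR-143-3p, miR-145a-5p, miR-199a-3p, miR-214-3p) was 7089 to 24656 CPM in TG, against 13927 to 181966 CPM in SCG. The 2 of 2 endothelial markers, the arms of miR-126a, summed to 14518 to 24279 CPM in TG, against 16841 to 41138 CPM in SCG. The 4 of 4 neuron markers (miR-124-3p, miR-9-5p, miR-128-3p, miR-138-5p) summed to 25588 to 55436 CPM in TG, against 8357 to 35870 CPM in SCG, and 2 of 2 myelinating glia markers to 1852 to 3902 CPM in TG, against 40.02 to 1007 CPM in SCG. The SCG values of 35870 and 40.02 CPM were both from LPS replicate 2 of 7 d. The next highest neuron marker sum in SCG was 18468 CPM. None of these markers was at 0 in any library. Median sums of the remaining marker lists were 5963 CPM in TG and 686 CPM in SCG for skeletal muscle and 1947 and 839 CPM for red cells. They were 163 and 299 CPM for epithelium and 232 and 205 CPM for leukocytes. Their part in the difference between ganglia was not tested, and in bulk tissue fewer cells of a type and less of a miRNA per cell cannot be told apart.

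In TG no member passed the test of LPS against saline at the early times. At 4 h 0 of 6 members passed the test (0% of 538 miRNAs called, 15 of them with an unadjusted p under 0.05) and at 24 h 0 of 6 passed (0.372% called). DESeq2 called 0 members at either time. At 4 h the log2 fold changes of LPS over saline lay between -0.02 for miR-24-3p and 0.27 for miR-23b-3p, and at 24 h between -0.01 and 0.09. In TG at 4 h, miR-24-3p averaged 18830 ± 905 CPM after LPS and 19229 ± 293 CPM after saline (SD, n = 4 each), and miR-27b-3p averaged 30988 ± 1242 CPM after LPS and 30153 ± 1282 CPM after saline. At 24 h, miR-24-3p averaged 18080 ± 716 CPM after LPS and 18225 ± 316 CPM after saline, and miR-27b-3p averaged 29849 ± 2048 CPM after LPS and 30257 ± 1769 CPM after saline. These means differed by less than the SD of at least 1 of the groups. The arm miR-27a-5p had 70, 74, 79 and 77 CPM after LPS at 24 h, against 57, 47, 45 and 60 CPM after saline, without overlap (log2 fold change 0.53 ± 0.14, adjusted p = 0.121, edgeR), and did not pass. All LPS above all saline was reached by 1.49% of the miRNAs tested at that time.

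At 7 d in TG both miR-24 members were higher after LPS than after saline, and the saline libraries of that time were low. The member miR-24-3p had 18455, 19586, 19456 and 19949 CPM after LPS, against 16638, 15207, 18802 and 14938 CPM after saline. For miR-24-2-5p the values were 771, 873, 799 and 923 CPM after LPS, against 642, 594, 833 and 639 CPM after saline. Saline replicate 3 was high and overlapped the LPS libraries in both. The log2 fold change was 0.24 ± 0.06 (adjusted p = 0.0231, edgeR) for miR-24-3p and 0.32 ± 0.09 (adjusted p = 0.0311, edgeR) for miR-24-2-5p. These were 2 of 6 members called, both higher, where 6.13% of 538 miRNAs were called, 1.86% higher and 4.28% lower. The remaining members did not pass: miR-27b-3p had 0.25 ± 0.08 (adjusted p = 0.0714, edgeR), miR-27a-3p 0.24 ± 0.10 (0.154), miR-23a-3p 0.21 ± 0.16 (0.502) and miR-23b-3p 0.05 ± 0.14 (0.883). The members' median was 0.24, against -0.01 over all miRNAs tested.

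The same LPS libraries were not called against the earlier saline libraries. Against the 8 TG saline libraries of 4 h and 24 h, the log2 fold change at 7 d was 0.06 ± 0.05 for miR-24-3p (adjusted p = 0.896, edgeR) and 0.02 ± 0.08 for miR-24-2-5p (adjusted p = 0.946, edgeR). Saline libraries of 7 d against those earlier saline libraries gave -0.18 ± 0.05 for miR-24-3p (adjusted p = 0.0302, edgeR) and -0.29 ± 0.08 for miR-24-2-5p (adjusted p = 0.0136, edgeR), 2 of 6 members called, where 13.6% of miRNAs were called and 3.16% were called lower. These 2 comparisons share the 8 earlier saline libraries. The second also shares the 7 d saline libraries with the comparison of LPS and saline at 7 d. Without saline replicates 1, 2 and 4, the libraries high in neuron markers, miR-24-3p had 0.06 and miR-24-2-5p 0.03. The 1 saline library left was replicate 3, which already lay among the LPS libraries for both members. The fall in both values thus followed from which library was left, and the part of the neuron markers was not tested. The neuron marker sum was 28973 to 31265 CPM in the 4 LPS libraries at 7 d, against 30344 to 55436 CPM in the 4 saline libraries, and the sensory neuron marker sum was 71777 to 82637 CPM, against 57023 to 73825 CPM.

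The call at 7 d also depended on the fit: with no filter on low counts the adjusted p was 0.128 for miR-24-3p and 0.227 for miR-24-2-5p, and with only the 8 libraries of that time it was 0.247 for both. Single libraries also decided these calls. The call of miR-24-3p was lost without saline replicate 2 (adjusted p = 0.0565). The call of miR-24-2-5p was lost without LPS replicate 2 (adjusted p = 0.0621), LPS replicate 4 (0.0856), saline replicate 1 (0.0900), saline replicate 2 (0.0870) or saline replicate 4 (0.0656). Conversely, miR-27b-3p passed without LPS replicate 1 (adjusted p = 0.0237) or saline replicate 3 (0.00219), and miR-27a-3p passed without saline replicate 4 (0.0388). In those libraries miR-27b-3p had 26682, 32820, 31651 and 33599 CPM after LPS, against 25251, 24027, 30989 and 25295 CPM after saline. Here too saline replicate 3 lay with the LPS libraries, and LPS replicate 1 lay with the saline libraries.

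In SCG 0 of 6 members passed after LPS at 4 h (0% of 506 miRNAs called, 13 with an unadjusted p under 0.05), at 24 h (0.395% called) or at 7 d (0.593% called, 103 with an unadjusted p under 0.05), and DESeq2 called 0 of them at each time. With all libraries the largest value was that of miR-23a-3p at 7 d. It had 957, 852, 656 and 683 CPM after LPS, against 307, 467, 551 and 552 CPM after saline. All 4 LPS libraries were above all 4 saline libraries, as for 5.34% of the miRNAs tested. The log2 fold change was 0.73 ± 0.33 (adjusted p = 0.219, edgeR), and 0.72 ± 0.36 (adjusted p = 0.498) without LPS replicate 2. The smooth muscle and mesenchyme marker sum was 50163 to 104318 CPM after LPS at 7 d, against 17740 to 46638 CPM after saline, and its part was not tested. At 7 d miR-27a-3p had 9901, 8957, 8932 and 8473 CPM after LPS, against 6829, 7823, 7558 and 8527 CPM after saline, where saline replicate 4 overlapped the LPS libraries (0.26 ± 0.14, adjusted p = 0.314, edgeR).

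At 4 h in SCG it was miR-27b-3p that had no overlap. It had 22712, 21463, 21607 and 23728 CPM after LPS, against 19909, 19647, 19749 and 19659 CPM after saline, a state reached by 1.19% of the miRNAs tested. The saline libraries lay within a narrow range and all LPS libraries above it. The log2 fold change was 0.14 ± 0.17 (adjusted p = 0.998, edgeR), where the spread is shared with the other SCG groups and includes LPS replicate 2 of 7 d, and 0.16 ± 0.09 (adjusted p = 0.774) without that library. Leaving out the muscle-rich saline replicates 1 and 2 of 4 h, which leaves 2 saline libraries, both male, gave 0.30 ± 0.22 for miR-27b-3p (adjusted p = 0.993, edgeR). It gave 0.94 ± 0.43 for miR-23a-3p (adjusted p = 0.853, edgeR), against 0.35 ± 0.33 with them and above the 7 d value. For miR-23b-3p it gave 0.55 ± 0.33, against 0.12 ± 0.27 with them, for miR-27a-3p 0.34 ± 0.18, against 0.10 ± 0.14, for miR-24-2-5p 0.17 ± 0.20, against 0.08 ± 0.15, and for miR-24-3p -0.08 ± 0.25, against 0.05 ± 0.20, and none passed. That fit kept LPS replicate 1 of 4 h, which had 12094 CPM of the muscle markers and the highest miR-23a-3p, 1643 CPM. The smooth muscle and mesenchyme marker sum was 23312 to 181966 CPM after LPS at 4 h. It was 33129 and 19335 CPM in the saline libraries left, and its part was not tested. The arm miR-27a-5p was also above all saline libraries at 4 h, with 156, 107, 138 and 128 CPM after LPS, against 95, 75, 101 and 96 CPM after saline (0.50 ± 0.21, adjusted p = 0.998, edgeR).

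Replicate 2 of SCG at 7 d after LPS was far below the others for miR-24-3p and miR-27b-3p. For miR-24-3p the 4 LPS libraries had 25168, 9038, 23739 and 23306 CPM, against 27148, 27047, 23378 and 23932 CPM in the saline libraries, and for miR-27b-3p 21758, 9266, 22219 and 21640 CPM, against 16563, 17171, 20622 and 21089 CPM. Its 852 CPM of miR-23a-3p and 8957 CPM of miR-27a-3p were each the second highest of the 4 LPS libraries, while its 926 CPM of miR-24-2-5p lay below the other LPS libraries and all 4 saline libraries. The log2 fold change of miR-24-3p was -0.32 ± 0.20 (adjusted p = 0.369, edgeR) with this library and -0.05 ± 0.11 (adjusted p = 0.858) without it. For miR-27b-3p it was -0.01 ± 0.17 (adjusted p = 0.974) with it and 0.22 ± 0.10 (adjusted p = 0.489) without it.

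Over the 3 times together 0 of 6 members passed in TG (0.558% called) and 0 of 6 in SCG (1.19% called). In TG the 6 members had log2 fold changes between 0.07 and 0.15, with a median of 0.11, against -0.01 over all miRNAs, and unadjusted p under 0.05 for 2 of them. Without TG 7 d saline replicates 1, 2 and 4 the values lay between -0.01 for miR-23a-3p and 0.11 for miR-27a-3p, with 0.01 for miR-24-2-5p, 0.01 for miR-24-3p, 0.01 for miR-27b-3p and 0.04 for miR-23b-3p, and no unadjusted p was under 0.05. In SCG the members ran from -0.09 for miR-24-3p to 0.49 ± 0.19 for miR-23a-3p (adjusted p = 0.294, edgeR), again with 2 unadjusted p under 0.05. Without SCG 7 d LPS replicate 2 miR-24-3p had 0.00 ± 0.06 (adjusted p = 0.983, edgeR), and the other members had 0.10 to 0.50. DESeq2 called 0 members in either ganglion over the 3 times.

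**Figure D4:**
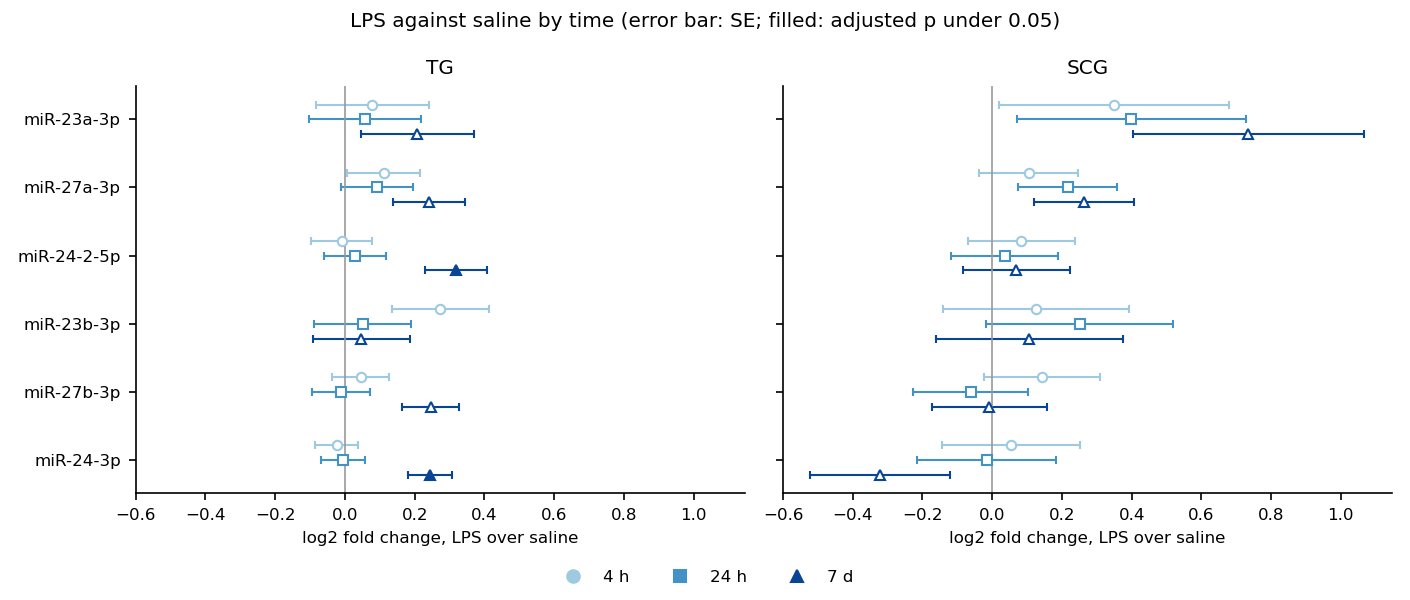
log2 fold change of LPS over saline, with SE, for each member at 4 h, 24 h and 7 d in TG (left) and SCG (right). Filled points have an adjusted p under 0.05. Only miR-24-2-5p (0.32) and miR-24-3p (0.24) in TG at 7 d are filled, and in SCG miR-23a-3p at 7 d has the largest value, 0.73, with a wide SE.

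Differences between LPS effects were tested directly. Between ganglia, the LPS effect of TG minus that of SCG passed for 0 of 6 members at 4 h (0% of 577 miRNAs called), 24 h (0% called) and 7 d (0.347% called). For miR-24-3p at 7 d it was 0.57 ± 0.23 on the log2 scale (adjusted p = 0.132, edgeR), and 0.29 ± 0.14 (adjusted p = 0.276) without SCG LPS replicate 2. DESeq2 gave 0.61 ± 0.21 with an adjusted p of 0.0364. Between times, 0 of 6 members passed in TG for 24 h against 4 h (0% called) and for 7 d against 4 h (1.86% called), and 0 of 6 in SCG (0% called for either). In TG for 7 d against 4 h the largest member values were 0.33 ± 0.12 for miR-24-2-5p (adjusted p = 0.182, edgeR) and 0.27 ± 0.09 for miR-24-3p (adjusted p = 0.143, edgeR). In SCG for 7 d against 4 h they were 0.38 ± 0.47 for miR-23a-3p (adjusted p = 0.951, edgeR) and -0.38 ± 0.28 for miR-24-3p (adjusted p = 0.902, edgeR).

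No difference between female and male mice passed the test in these miRNAs. For female against male mice 0 of 6 members passed in TG (0% called) and in SCG (0.988% called), and the log2 differences lay between -0.05 and 0.03 in TG and between -0.17 and 0.21 in SCG. The LPS effect of female minus that of male mice passed for 0 of 6 members in either ganglion (0% called in both), and the largest was 0.38 ± 0.14 for miR-23b-3p in TG (unadjusted p = 0.0136, adjusted p = 0.986, edgeR). DESeq2 called 0 members in these 4 comparisons.

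Paralog ratios after LPS were tested over 24 comparisons of 4 against 4 libraries with an exact two-sided permutation test, whose smallest possible p is 0.0286, and 0 passed adjustment. In SCG at 7 d the ratio of miR-23a-3p to miR-23b-3p had a geometric mean of 0.955 after LPS and 0.603 after saline, with no overlap (exact permutation p = 0.0286, adjusted p = 0.343). The LPS libraries ran from 0.756 to 1.67 and the saline libraries from 0.561 to 0.676. Without LPS replicate 2, the highest, the log2 difference was 0.40 in place of 0.66. The ratio of miR-24-2-5p to miR-24-3p there had a geometric mean of 0.0604 after LPS and 0.0436 after saline, also with no overlap and the same p-values, and without that library the log2 difference was 0.22 in place of 0.47. Each then had an exact permutation p of 0.0571, the smallest that 3 against 4 libraries can give, and an adjusted p of 0.343. In TG the ratio of miR-27a-3p to miR-27b-3p had geometric means of 0.202, 0.213 and 0.203 after LPS at 4 h, 24 h and 7 d, against 0.195, 0.199 and 0.202 after saline.

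Pairs of members had Pearson r from -0.29 to 0.73 across the 48 libraries, after each ganglion was centred on its own mean log2 CPM. Correlations here are descriptions over libraries that share groups and scaling. The miR-23 paralogs of different chromosomes had Pearson r = 0.73, and r = 0.85 without SCG 7 d LPS replicate 2. Within a cluster, miR-23a-3p and miR-27a-3p had r = 0.54 (0.53 without that library), and miR-23b-3p and miR-27b-3p 0.57 (0.44 without it). The members miR-24-3p and miR-27b-3p had r = 0.71 with that library and 0.16 without it. With the other members miR-24-3p had -0.29 for miR-23a-3p, -0.21 for miR-27a-3p, 0.41 for miR-24-2-5p and 0.15 for miR-23b-3p. Without that library these were -0.36, -0.16, 0.41 and -0.39. Of the 192 other miRNAs at 100 CPM or more on average, those most like miR-23a-3p were miR-30b-5p (r = 0.82), miR-221-3p (0.82) and miR-26b-5p (0.81). Those most like miR-23b-3p were miR-107-3p (0.58), miR-221-3p (0.55) and let-7g-5p (0.55). Without that library their order changed, with 0.58 for miR-107-3p, 0.71 for miR-221-3p and 0.65 for let-7g-5p. Those most like miR-27a-3p were miR-145a-3p (0.67), miR-199b-3p (0.65) and miR-199a-3p (0.65), near-identical rows of which the last is in the smooth muscle and mesenchyme list. Those most like miR-24-2-5p were miR-26a-5p (0.61), miR-224-5p (0.61) and miR-195a-3p (0.60). For miR-24-3p they were miR-99a-5p (0.95, and 0.85 without that library), miR-204-5p (0.91, and 0.67 without it) and miR-434-5p (0.90, and 0.64 without it). For miR-27b-3p they were miR-493-5p (0.83), miR-329-5p (0.81) and miR-409-5p (0.81), which fell to 0.44, 0.33 and 0.32 without it.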

How the data were processed

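Small RNA libraries were made from 140 ng of total RNA per sample with a ligation-based kit, per the labels' protocols. The deposited table holds counts per mature miRNA as whole numbers for 48 libraries, per the file headers and values. FastQC 0.11.9 and the build GRCm39 are named in the submitters' processing notes, while for the aligner, the counter and its treatment of paralogs nothing is recorded in the labels or headers. Sequences and coordinates are from RefSeq, GRCm38.p6, a different build.

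Counts were tested with edgeR 4.0.16 (TMM scaling, filterByExpr with a minimum count of 10, quasi-likelihood test, Benjamini-Hochberg adjustment over all miRNAs tested, threshold 0.05), in R 4.3.3. LPS was compared with saline within the 24 libraries of a ganglion, with groups and sex as terms, and TG with SCG within the 24 libraries of a treatment, with time and sex as terms. Paralog ratios were compared by permutation in SciPy 1.17.1. DESeq2 1.42.0, RLE scaling, no filter, no sex term and left-out libraries were alternatives. The fit was tested on simulated data, where the changes put in were larger than any member's change here. How well it finds changes of the members' size was not tested. Libraries of a group came from different mice, so p-values rest on the spread between mice, and TG and SCG libraries of 1 mouse were treated as independent.

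All 6 members were named in every comparison, the other arms were 1 list, and likeness took the 3 miRNAs with the highest r per member. Members, lists and marker sets were chosen with earlier results of these data known. Over 72 pairs of replicates none was closer than sampling noise (lowest chi-square per degree of freedom 25.2).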

Additional observations from a re-analysis of the deposited data

Results flagged for a closer look

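Within the 72 sets of 4 libraries (6 members in 12 groups), 5 had a library whose gap to its neighbour exceeded Dixon's 95% critical value, and chance flags about 1 in 20. In SCG at 7 d after LPS, replicate 2 was lowest for miR-24-3p (9038 CPM) and for miR-27b-3p (9266 CPM). In TG at 24 h after saline, replicate 4 was highest for miR-27a-3p (6481 CPM) and for miR-27b-3p (32907 CPM). In SCG at 24 h after saline, replicate 4 was lowest for miR-27b-3p (19475 CPM).

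At 7 d every TG library after LPS lay above the mean of the TG saline libraries for miR-24-3p and every SCG library after LPS lay below the mean of the SCG saline libraries. The difference of the LPS effects, TG minus SCG, was 0.57 on the log2 scale and did not pass (adjusted p = 0.132, edgeR).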

How the results depend on the processing

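No paired analysis was possible because nothing in the labels ties a TG library to an SCG library of the same mouse, and the numbers within a group only follow accession order. Of 999 alternative values of a member's log2 fold change, 973 kept their side of the threshold, 22 lost the call, 4 gained one and 0 called values changed sign. Most of the 999 belong to values that were not called at first, and the 22 losses fall only on called values. The share kept thus says little of how stable the calls were. All 228 alternative values of the ratios kept their side of the threshold. For ratios of LPS against saline, with at most 4 against 4 libraries, no p can be below 0.0286. After adjustment such a p passes only if many of the tests reach it together. Keeping their side thus says little of how stable the LPS ratios were.

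The number of members called at 7 d in TG, 2, was 0 with no filter on low counts, with only the 8 libraries of that time and against the 8 earlier saline libraries. It was from 0 to 3 with 1 library left out. For TG against SCG after LPS it was 3 with no filter, in place of 6. For 7 d against earlier saline libraries in TG it was 0 with no filter, in place of 2. DESeq2 called 1 member for the ganglion difference of the LPS effect at 7 d, in place of 0. With no filter more miRNAs are tested, and for the rest the cause was not tested. Without the filter, miR-23a-3p lost its call for TG against SCG after saline (log2 fold change -0.28, adjusted p = 0.271). In that comparison miR-23b-3p had 0.51 without SCG 4 h saline replicates 1 and 2, in place of 0.34. Leaving out TG 7 d saline replicates 1, 2 and 4 from the comparison of ganglia and from the TG comparison over all times was chosen after seeing the data. The smallest p of 4 against 4 libraries, 0.0286, limits the ratios.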
